A study of Mus musculus with 3 samples.

Results

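The 40 genes described here encode the machinery of G2 and mitosis: the cyclins and Cdk1 that drive entry, the mitotic kinases, the kinetochore, the spindle motors and the proteins of cytokinesis. They were listed by name and by no threshold on a measured value, though with earlier results of these data known, and all 40 were present among the 14811 genes of the count table. Each was followed in 5564 single T cells from mouse melanoma, in 4 classes of T cell and across 4 hashtag numbers.

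B16F10 is a transplantable mouse melanoma line, and the tumors grew under the skin from cells given in matrigel. CD45.1 CD4 T cells or CD45.2 CD8 T cells were injected into the tail vein on day 1 after implantation, and tumors were taken on day 11. CD45.1 and CD45.2 are congenic forms of a leukocyte surface protein that mark the injected cells. From 10 pooled mice, 4 populations were sorted: CD45.1 cells with CD4 alone or with both co-receptors, and CD45.2 cells with CD8 alone or with both. The mice are labelled untreated, and no other genotype is given. Each population carried its own hashtag before all were pooled into 1 droplet library of 5′ transcript ends, for which about 6200 cells were loaded. The authors' annotation gives each cell an identity (Cd4 or Cd8), a double-positive call (Tdp) and a hashtag number from 1 to 4. These made 4 classes: 2477 cells of the Cd4 class, 93 Tdp cells of Cd4 identity, 2681 cells of the Cd8 class and 313 Tdp cells of Cd8 identity. The sources used here do not tie a hashtag number to a sorted population, and every class held cells of all 4 numbers. An identity is therefore not a proof of origin.

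All cells shared 1 library, so the classes have no replicates and no test was made. Intervals are 95% and cover counting error only. The table held 26763131 UMIs (counts of single captured molecules) with a median of 3869 per cell. Class medians were 3478 in the Cd4 class, 4668 in Cd4-identity Tdp cells, 4159 in the Cd8 class and 4981 in Cd8-identity Tdp cells. All 406 Tdp cells held a UMI of both Cd4 and Cd8a, a condition that a deeper cell meets more easily.

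Cdk1 bound to cyclin A and then cyclin B starts mitosis, Plk1 and the Aurora kinases build the spindle and ready the chromosomes, and Bub1, Bub1b and Ttk hold back anaphase until every kinetochore is attached. Cdc20 and Ube2c then let the anaphase-promoting complex destroy cyclin B, and Prc1, Ect2 and Anln prepare the cell to split. Most of these genes are transcribed late in the cycle from promoters with a cell cycle genes homology region, bound by DREAM in resting cells and by MuvB with B-Myb and FoxM1 in dividing ones. In T cells they mark clonal expansion after antigen contact.

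The promoters of the genes that lead the results are shown with the short motifs of that control. Of these motifs, TTTGAA and CCAAT were each found in most of the 40 genes, although the choice of genes did not use them. Of the 40, 37 had a promoter of 300 bases in the RefSeq table (GRCm38.p6), 250 bases before the transcript start and 50 after it. The letters TTTGAA, the core of the homology region, lay on either strand in 27 of the 37 genes (73.0%), against 15.0% of 10965 genes in the count table with a promoter and 17.6% of 34 S phase genes. Within 50 bases of the start the shares were 64.9% of the 37, 3.89% of all and 8.82% of the S phase genes. CCAAT, the box bound by NF-Y, was found in 78.4% of the 37 genes, 67.6% of the S phase genes and 42.6% of all. It was thus common in both lists. Both motifs were found in 62.2% of the 37, 11.8% of the S phase genes and 6.05% of all. TTTNNCGC, an E2F-type motif that can share letters with TTTGAA, was found in 1 of the 37 (2.7%), Cdk1, against 47.1% of the S phase genes and 9.45% of all. The 36 of 48 further mitosis genes with a promoter held TTTGAA in 63.9% but TTTNNCGC in 27.8%, so the low share did not extend to that list. A match is a run of letters and not a shown binding site. The 150 bases before the start are printed 5′ to 3′ on the gene's strand, with the 3 motifs in capitals on either strand, so that a motif of the opposite strand appears as its reverse complement.
Cdc20: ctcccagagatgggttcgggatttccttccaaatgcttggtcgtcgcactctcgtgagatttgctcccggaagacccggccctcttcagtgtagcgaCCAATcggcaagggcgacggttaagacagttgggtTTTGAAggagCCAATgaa
Ube2c: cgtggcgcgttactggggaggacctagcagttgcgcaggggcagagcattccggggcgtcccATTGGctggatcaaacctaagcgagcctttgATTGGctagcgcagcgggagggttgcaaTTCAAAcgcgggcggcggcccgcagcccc
Prc1: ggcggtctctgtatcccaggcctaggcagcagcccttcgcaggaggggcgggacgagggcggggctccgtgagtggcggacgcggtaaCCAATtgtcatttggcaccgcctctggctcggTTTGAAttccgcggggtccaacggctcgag
Arhgap19: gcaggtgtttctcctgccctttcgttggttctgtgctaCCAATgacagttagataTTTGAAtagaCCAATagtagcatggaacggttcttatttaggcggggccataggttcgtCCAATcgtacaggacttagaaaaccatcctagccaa
Depdc1a: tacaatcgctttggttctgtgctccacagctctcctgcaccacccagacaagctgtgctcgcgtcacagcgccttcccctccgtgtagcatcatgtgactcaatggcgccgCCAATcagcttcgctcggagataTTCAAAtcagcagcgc
Cdk1: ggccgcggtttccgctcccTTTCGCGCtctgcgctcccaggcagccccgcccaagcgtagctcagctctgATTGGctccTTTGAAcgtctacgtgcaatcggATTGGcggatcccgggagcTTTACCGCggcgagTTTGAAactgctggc
Cks2: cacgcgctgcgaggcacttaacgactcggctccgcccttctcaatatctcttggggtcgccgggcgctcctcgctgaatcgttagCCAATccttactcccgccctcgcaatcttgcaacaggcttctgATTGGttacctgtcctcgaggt
Mcm5: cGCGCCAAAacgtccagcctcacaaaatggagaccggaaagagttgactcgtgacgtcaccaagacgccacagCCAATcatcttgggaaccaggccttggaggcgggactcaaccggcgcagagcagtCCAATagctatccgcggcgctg
Cdc20 (chr4:118437344-118437493, minus strand) has TTTGAA starting 18 bases before its start site, and Ube2c (chr2:164769779-164769928, plus strand) has it on the opposite strand at 29. Prc1 (chr7:80294326-80294475, plus strand, the start site of 2 in the table with more of these letters) has it at 30 with a CCAAT box at 62. Arhgap19 (chr19:41802085-41802234, minus strand) holds it at 95 between CCAAT boxes, and Depdc1a (chr3:159495283-159495432, plus strand) at 16 on the opposite strand. Cdk1 (chr10:69352913-69353062, minus strand) carries both kinds, with TTTGAA at 71 and 15 and TTTNNCGC at 131 and 29. Cks2 (chr13:51645082-51645231, plus strand) is a contrast with CCAAT boxes and no TTTGAA in the window. Mcm5 (chr8:75109359-75109508, plus strand), a subunit of the replication helicase and no member, is an S phase contrast with TTTNNCGC on the opposite strand at 149.

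Transcripts of the 40 genes came almost wholly from a minority of cells. A cell was called cycling, or gated, when it held 2 or more UMIs over Mki67 (a chromosome surface protein used as a proliferation marker), Top2a (topoisomerase II, which untangles sister chromatids), Cdk1 and Birc5 (survivin, of the chromosomal passenger complex). The gate took 884 cells, 15.9% of all, which held 27.2% of all UMIs. For the 36 members that did not make the gate, a median of 94.6% of UMIs lay in these cells (range 71.4 to 98.7%), against a median of 26.1% over 9622 genes with at least 100 UMIs and 64.5% over the 46 S phase genes. CD3 transcripts (Cd3d, Cd3e or Cd3g) were present in 870 of the 884 gated cells, 98.4%. Droplets that hold 2 T cells were not removed. A second Trbv gene, which most T cells lack, was counted as their sign: of gated Cd4-identity Tdp cells with at least 4 Trbv UMIs, 10 of 20 (27.2 to 72.8%) had 2 Trbv genes with 2 or more UMIs each. The share was 23.6% (14.4 to 35.1) in gated Cd8-identity Tdp cells, 21.8% (17.8 to 26.2) in the Cd8 class and 20.6% (15.6 to 26.4) in the Cd4 class.

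Kif2c, a kinesin that depolymerises microtubules, had 302 of its 306 UMIs in gated cells, 98.7% (96.7 to 99.6). Bub1, a checkpoint kinase, had 98.4% there and Ccna2, cyclin A2, 98.2%. At the other end stood Ska2, of the Ska complex that couples kinetochores to microtubules, with 71.4% (67.5 to 74.97). Cks2, a small Cdk-binding subunit, had 77.7% (76.3 to 79.0), Cenpa, the centromeric histone H3 variant, 77.9% (76.7 to 79.2) and Kif23, a kinesin of the central spindle, 82.7% (80.1 to 85.1). These 4 were thus the least restricted to cycling cells, and 30 of the 36 stood at 90% or more. Genes outside the 40 with the same restriction were Sapcd2 (98.6%), Pbk (98.6%), Esco2 (98.4%), Ska1 (98.4%), Pimreg (98.2%) and Mxd3 (98.2%). Esco2 is an acetyltransferase that sets sister chromatid cohesion in S phase, and Pbk is a mitotic kinase.

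**Figure D1:**
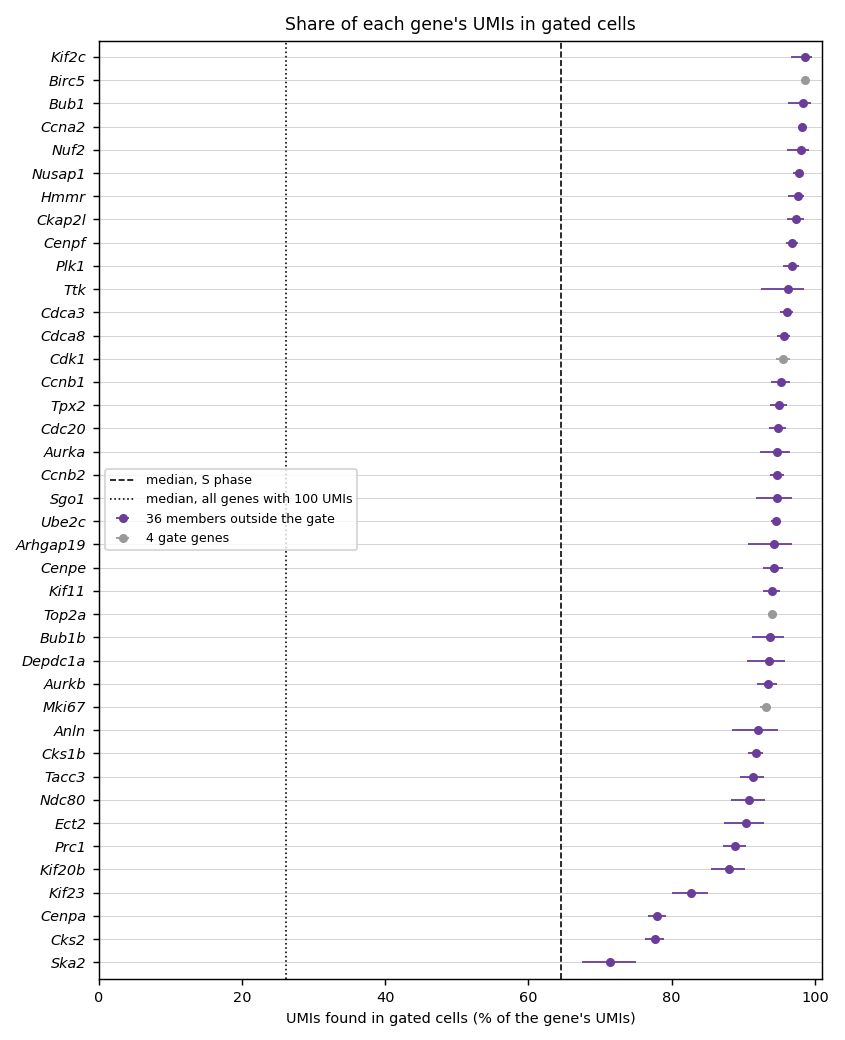
Percent of each gene's UMIs that lay in the 884 gated cells (x axis, with 95% Clopper-Pearson intervals) for the 40 genes (y axis). Purple points are the 36 members outside the gate, grey points the 4 genes that made the gate and were high by construction, and the vertical lines are the medians of the S phase list (64.5%) and of all genes with at least 100 UMIs (26.1%); Ska2, Cks2, Cenpa and Kif23 lie lowest.

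Detection per cell gave the same picture. The 36 members were detected in 16.6 to 73.8% of gated cells (median 44.6%, median depth 7540.5 UMIs) and in 0.0765 to 15.1% of the 3924 cells with no gate UMI (median 1.02%, median depth 3564.5 UMIs). Cks1b, the partner of Cks2, was found in 73.8% of gated cells and 3.24% of cells with no gate UMI. Cenpa was found in 67.8% and 15.1%, and Cks2 in 72.3% and 14.6%, so these 2 genes were the most often detected outside the gate. After each cell was thinned to 2000 UMIs, Cenpa was found in 49.6% of gated cells and 9.25% of cells with no gate UMI, and Cks2 in 54.2% and 8.70%. Ttk, a checkpoint kinase, was the least detected member, in 16.6% of gated cells.

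The gate cut the cells near the foot of a steep rise. The 756 cells with 1 gate UMI, just outside, held a mean of 1.27 UMIs over the 36 members. The 161 cells with 2 gate UMIs, just inside, held 3.32, the 49 cells with 3 held 5.94, and the 674 cells with 4 or more held 64.1. Most gated cells were thus far above the threshold, and the 161 at it were close to those outside.

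Within the gated cells the members did not share 1 time in the cycle. Each gated cell was set down as leaning to S phase or to mitosis by which sum was larger, the UMIs of the 46 S phase genes (such as the Mcm helicase subunits, Pcna and the ribonucleotide reductase subunits) or those of the 36 members, with the gene in question left out of the sum. The direction of the ratio follows from that split for a group of genes that vary together. Only the order of the members among themselves is described. Cdc20, the activator of the anaphase-promoting complex, stood at 312 CPM (UMIs scaled to the same total for each group of cells) in mitosis-leaning and 27.1 CPM in S-leaning gated cells, a ratio of 11.5 (9.34 to 14.3). Ube2c, its ubiquitin-conjugating enzyme, stood at 1462 and 161 CPM, a ratio of 9.09 (8.36 to 9.90). These 2 genes that end mitosis had the largest ratios, with intervals that overlapped each other.

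Arhgap19, a GTPase-activating protein for RhoA, followed with 7.64 (5.10 to 11.9), Cenpf, a kinetochore and centromere protein, with 7.62 (6.58 to 8.86) and Ccnb1, cyclin B1, with 7.09 (5.87 to 8.64). The intervals of these 3 overlapped, so their order is not settled. The interval of Arhgap19 also overlapped those of Cdc20 and Ube2c, and the intervals of Cenpf and Ccnb1 reached that of Ube2c. Aurka (Aurora A, the centrosomal kinase) had 6.65, Cenpa 5.89, Plk1 (Polo-like kinase) 5.33 and Hmmr (a spindle microtubule protein) 5.09, which made 9 of the 36 with a ratio of 5 or more. Cdc20 and Ube2c also had the largest ratios within the Cd4 class and the Cd8 class. In Cd8-identity Tdp cells Arhgap19 (26.8), Cenpf (22.4) and Hmmr (13.7) stood above Cdc20 (13.2, 6.23 to 33.3), with intervals that overlapped, and Ube2c stood at 7.44. The low end held Ttk at 1.84 (1.35 to 2.54), Ska2 at 1.90, Anln (anillin, of the contractile ring) at 1.92, Ndc80 at 1.94, Aurkb (Aurora B) at 1.96 and Nuf2 at 2.01. Ndc80 and Nuf2 are arms of the same kinetochore complex, and their ratios lay inside each other's intervals. Of the cyclins, Ccna2 stood at 2.67 (2.43 to 2.92), Ccnb2 at 4.82 (4.32 to 5.39) and Ccnb1 at 7.09, with no overlap among the 3 intervals. The median of the 36 was 2.87. Members with TTTGAA in the promoter, gate genes included, had a median of 2.96 (1.81 to 11.5) and those without 2.58 (1.90 to 7.09). The 4 highest members, Cdc20, Ube2c, Arhgap19 and Cenpf, held it, as did 27 of the 37 with a promoter, and Ccnb1, the next, did not. A link between motif and order was not tested.

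**Figure D2:**
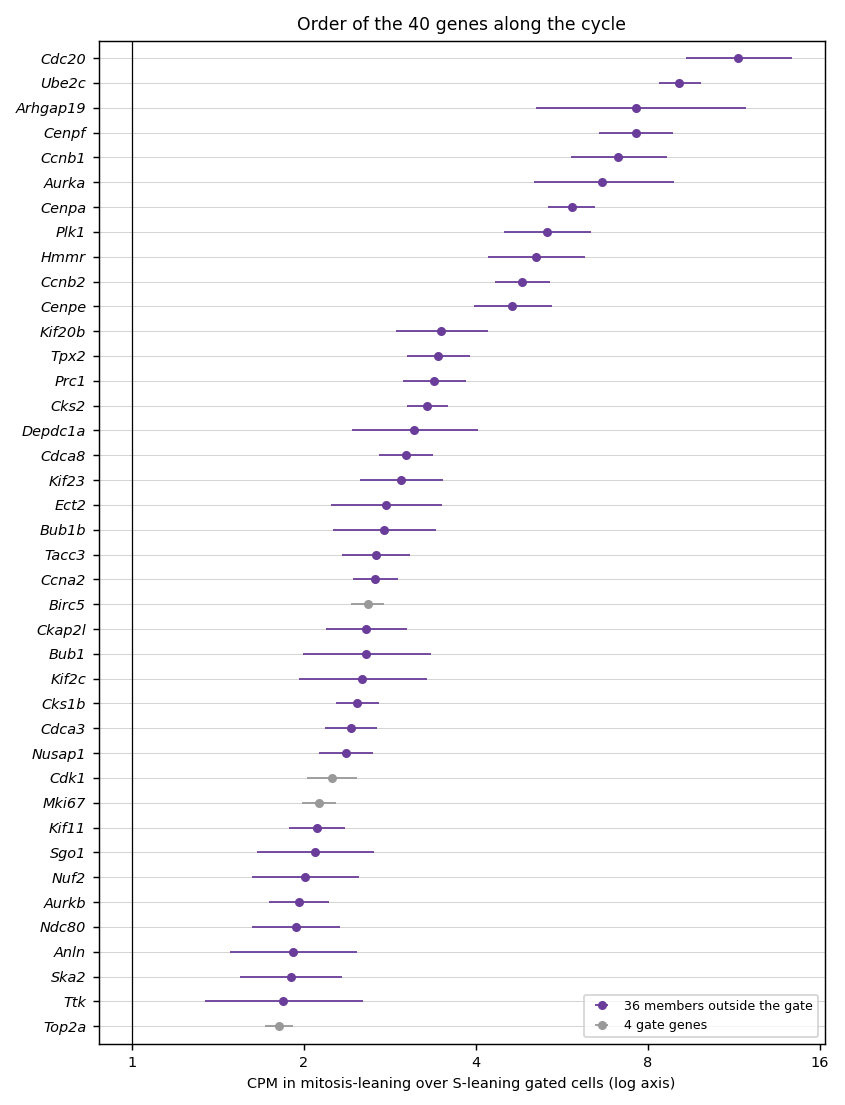
Ratio of CPM in mitosis-leaning over S-leaning gated cells (log axis, bars are 95% intervals from the counts) for the 40 genes. Purple points are the 36 members outside the gate and grey points the 4 gate genes; Cdc20 (11.5) and Ube2c (9.09) lie highest, and Top2a (1.81) and Ttk (1.84) lowest.

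A larger share of Tdp cells than of single-class cells passed the gate, both as deposited and after thinning. Weighting the single class to the depth and hashtag numbers of its Tdp cells nearly closed this gap for Cd8 identity. For Cd4 identity the weighting reversed it. Of the Cd8-identity Tdp cells 74 of 313 were gated, 23.6% (19.0 to 28.7), against 472 of 2681 in the Cd8 class, 17.6% (16.2 to 19.1). Of the Cd4-identity Tdp cells 21 of 93 were gated, 22.6% (14.6 to 32.4), against 317 of 2477 in the Cd4 class, 12.8% (11.5 to 14.2). The intervals of Tdp and single class touched no common value in the Cd4 pair and overlapped by a sliver in the Cd8 pair. With every cell thinned to 2000 UMIs the shares were 18.4% (14.3 to 23.2) against 13.5% (12.2 to 14.9), and 15.7% (8.88 to 24.98) against 9.09% (7.93 to 10.4), and both pairs of intervals then overlapped. Thinning left out 4, 181, 4 and 232 cells of the classes in that order.

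Depth moved with the gate. Gated cells had a median of 7540.5 UMIs and ungated cells 3616.5. When the Cd8 class was weighted to the hashtag numbers and UMI totals of the Cd8-identity Tdp cells, its gated share was 22.8%, close to the 23.6% of the Tdp cells. The Cd4 class weighted to its Tdp cells reached 27.0%, above the 22.6% of the Tdp cells. Whether depth made Tdp calls in cycling cells, or cycling made cells deep, cannot be told apart here. By hashtag number the Cd8-identity Tdp shares were 17.02, 28.7, 22.0 and 22.2% for numbers 1 to 4, against 18.9, 15.8, 19.8 and 16.0% in the Cd8 class, so the Tdp cells were lower in number 1 and higher in the other three.

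Pooled over depth, cycling Tdp cells of Cd8 identity leaned further towards mitosis than cycling cells of the other 3 classes. In gated cells, S phase UMIs made up 38.6% (37.5 to 39.6) of S phase plus member UMIs in Cd8-identity Tdp cells. The share was 46.6% (46.1 to 47.1) in the Cd8 class, 45.1% (44.5 to 45.7) in the Cd4 class and 45.7% (43.3 to 48.1) in Cd4-identity Tdp cells. The first interval stood apart from the others. The sum over the 36 members was 7374 CPM in gated Cd8-identity Tdp cells and 6041 CPM in gated Cd8 class cells, 1.22-fold higher (1.18 to 1.26), while the S phase sum was 4627 against 5267 CPM, 1.14-fold lower (1.10 to 1.18).

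Counted by cells the difference was less sure. Of the gated Cd8-identity Tdp cells 29 of 74 held more S phase than member UMIs, 39.2% (28.0 to 51.2), against 235 of 472 in the Cd8 class, 49.8% (45.2 to 54.4), 170 of 317 in the Cd4 class, 53.6% (48.0 to 59.2) and 11 of 21 in Cd4-identity Tdp cells, 52.4% (29.8 to 74.3). The intervals of the Cd8 pair overlapped. The UMI intervals above treat molecules of 1 cell as independent, which they are not, and are too narrow for a statement about cells. In the 3 ranges of depth that split all gated cells evenly, the S phase share of Cd8-identity Tdp against the Cd8 class was 29.6 against 45.4%, 45.4 against 46.4% and 37.5 against 47.1%. The Cd4 class had 51.3, 40.4 and 46.2% in these ranges and Cd4-identity Tdp cells 21.3, 48.1 and 46.2%, the first on 4 cells. Cd8-identity Tdp cells thus had the lowest share of the 4 classes in the deepest range only. By hashtag number it was 45.5, 37.6, 35.5 and 39.5% for numbers 1 to 4 in Tdp cells, against 40.6, 50.5, 45.6 and 47.8% in the Cd8 class. Number 1 thus went the other way, on 8 gated Tdp cells, and number 3 rested on 9.

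**Figure D3:**
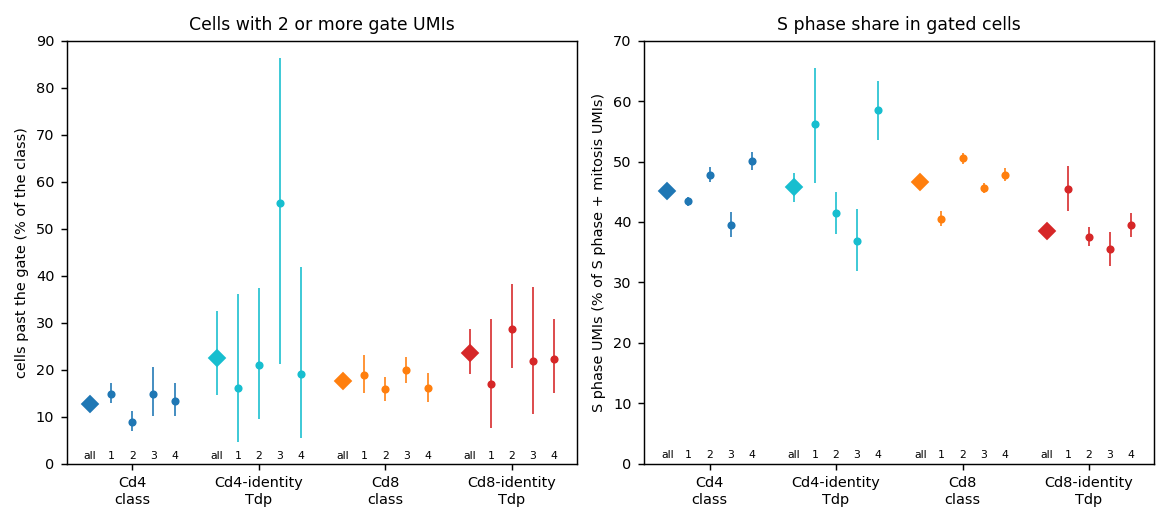
Left, percent of cells past the gate; right, S phase UMIs as a percent of S phase plus member UMIs in gated cells, for each class as a whole (diamonds) and by hashtag number 1 to 4 (circles), with 95% Clopper-Pearson intervals. Cd8-identity Tdp cells stand at 23.6% and 38.6% against 17.6% and 46.6% in the Cd8 class, with number 1 reversed in both panels.

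Over all cells, every member had a higher level in Cd8-identity Tdp cells than in the Cd8 class. A member was called when it differed by 1.5-fold or more, had an interval that left out 1 and had at least 20 UMIs over both classes. By this rule 19 of 40 were higher and none lower, against 2.07% of 11040 genes called higher and 4.6% called lower. The ratio was over 1 for 40 of 40, with a median log2 ratio of 0.54, against 0.02 over all genes. Because levels are sums over a class, more cycling cells and more transcript per cell cannot be told apart in these values. Member UMIs lay mostly in the same gated cells, 74 of the 313 Tdp cells, so the 40 ratios are not independent of each other. Most other genes are less restricted to these cells. Counts of members called, here and in the other comparisons, are thus not counts of separate evidence, and the intervals are too narrow for a statement about cells. In the S phase list 1 of 46 was higher (Cdc6, the helicase loader, 1.54-fold), 1 was lower, and the median log2 ratio was 0.06.

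By role, the cyclin, Cdk1 and Cks group had 3 of 6 called. Cks1b stood at 87.7 CPM in the Cd4 class, 105 in Cd4-identity Tdp, 104 in the Cd8 class and 161 in Cd8-identity Tdp cells, 1.55-fold higher (1.37 to 1.76) than in the Cd8 class. Cks2 stood at 133, 140, 146 and 207 CPM in the same order, a ratio of 1.42 that was not called. Cdk1 stood at 60.7, 62.9, 75.2 and 100.5 CPM, a ratio of 1.34, also not called. In each of these genes the Cd8-identity Tdp value was the highest of the 4 and its interval lay above that of the Cd8 class. Ccna2 (1.53-fold) and Ccnb1 (1.53-fold) were called, and Ccnb2 missed the fold at 1.48.

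Of the 3 genes of the anaphase-promoting complex and protein degradation 2 were called, Ube2c and Cdc20, and Cdca3 was not (98.4 against 72.0 CPM, a ratio of 1.37). Ube2c stood at 203 CPM in the Cd4 class, 217 in Cd4-identity Tdp, 217 in the Cd8 class and 356 in Cd8-identity Tdp cells, and the first 3 intervals overlapped. Cdc20 stood at 44.5, 47.2, 45.1 and 84.5 CPM, again with only the last apart. Of the mitotic kinases and passenger proteins only Plk1 was called, at 34.1, 38.4, 36.7 and 66.5 CPM, 1.81-fold (1.48 to 2.21). Aurora kinase genes stood lower in the list, Aurka at a ratio of 1.48 and Aurkb at 1.40, and Birc5, at 133, 138, 184 and 242 CPM, had 1.32. Tpx2, which activates Aurora A on the spindle, and Cdca8 (borealin) had ratios of 1.46 and 1.41.

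In the checkpoint and kinetochore groups 7 of 10 were called. Bub1b (BubR1, which inhibits Cdc20) stood at 16.3 CPM in the Cd4 class, 14.0 in Cd4-identity Tdp, 18.8 in the Cd8 class and 37.8 in Cd8-identity Tdp cells. Sgo1 (shugoshin, guardian of centromeric cohesion) stood at 10.4, 6.99, 14.0 and 28.2 CPM, 2.02-fold higher than in the Cd8 class (1.46 to 2.75). Ska2 stood at 22.1, 24.5, 19.7 and 38.8 CPM, 1.97-fold higher (1.5 to 2.57). For these 3 genes the Cd8-identity Tdp value was close to 2 times that of the Cd8 class, with intervals that stood apart. Ttk (1.88-fold), Nuf2 (1.70-fold), Cenpf (1.62-fold) and Cenpe, a plus-end kinesin of the kinetochore (1.60-fold), were also called. Cenpa, at 151, 217, 162 and 204 CPM, was highest in the Cd4-identity Tdp cells and had a ratio of 1.26. Ndc80 was the member least changed, with 24.8 CPM in the Cd8 class and 25.5 in Cd8-identity Tdp cells, a ratio of 1.03 (0.74 to 1.39).

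Among spindle and cytokinesis genes 5 of 12 were called. Prc1, which bundles the antiparallel microtubules of the central spindle, stood at 55.0 CPM in the Cd4 class, 45.4 in Cd4-identity Tdp, 54.1 in the Cd8 class and 105 in Cd8-identity Tdp cells. Arhgap19 had the largest ratio of all 40: 7.10, 8.74, 8.80 and 24.5 CPM. It was detected in 98 of 2681 Cd8 class cells and 29 of 313 Cd8-identity Tdp cells, with at most 4 UMIs in a cell, so no single cell made its level. Ect2, the exchange factor that activates RhoA at the cleavage site, stood at 14.9, 29.7, 17.4 and 28.7 CPM and was high in both Tdp classes. Kif20b (1.69-fold), a kinesin of the midzone, and Ckap2l (1.64-fold), a spindle protein, were called as well. Nusap1, a microtubule-binding spindle protein, at 49.1, 62.9, 66.2 and 95.7 CPM, was not (1.44). Depdc1a, outside these groups, stood at 10.5, 15.7, 14.6 and 28.7 CPM, 1.97-fold higher (1.43 to 2.68). Mki67 stood at 141, 121, 149.7 and 218 CPM and Top2a at 195, 204, 217 and 302 CPM, ratios of 1.46 and 1.39 that were under the fold.

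**Figure D4:**
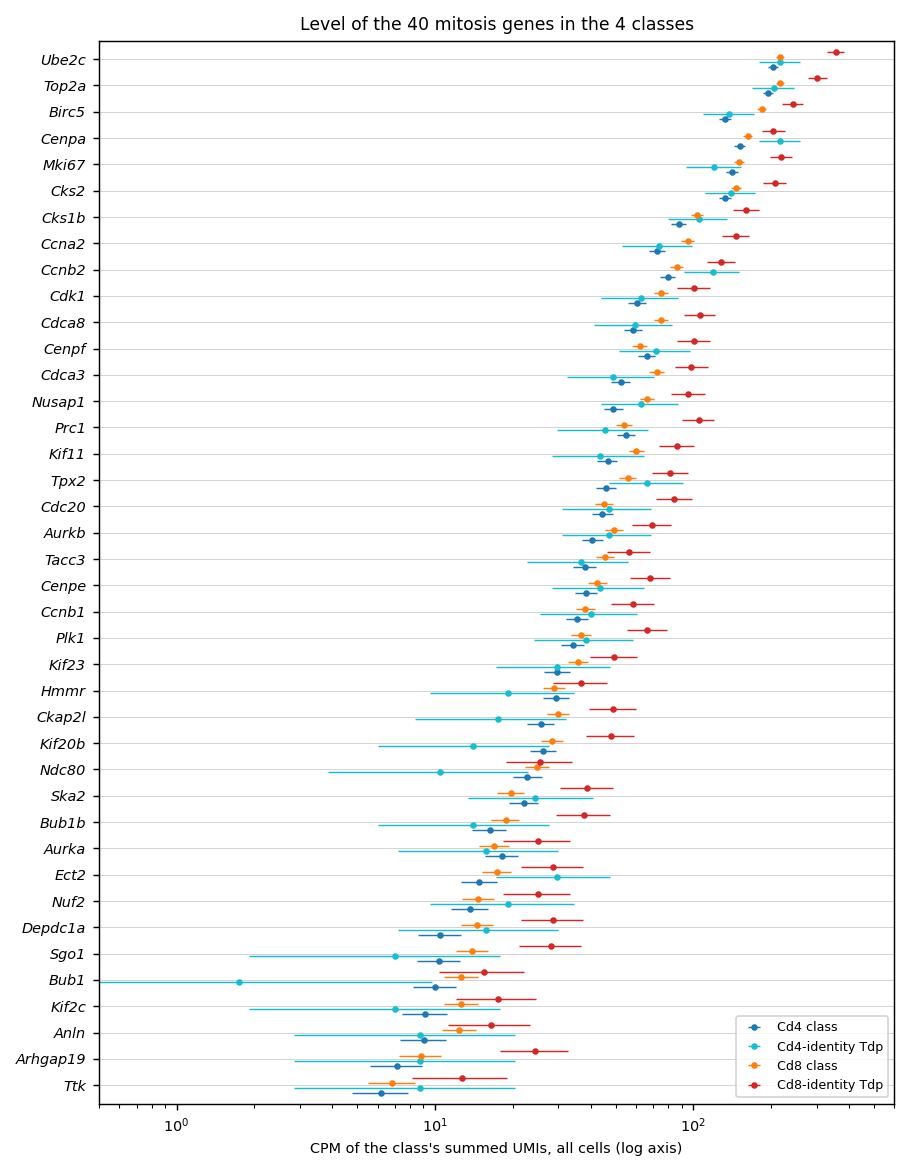
CPM of the summed UMIs of each class (log axis, bars are 95% Poisson intervals, cut at 0.5 CPM) for the 40 genes, ordered by CPM over all cells; capture differs between genes, so the order between genes is not a comparison. Red points, Cd8-identity Tdp cells, lie right of the orange points of the Cd8 class for 40 of 40 genes, most closely for Ndc80, and Cd4-identity Tdp cells have the widest intervals.

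The hashtag numbers did not share this difference evenly. Within number 2 (108 Tdp cells) 37 members were higher and the median log2 ratio was 1.00, and within number 4 (117 Tdp cells) 21 were higher with a median of 0.63. None was lower in either. Of all genes, 4% were called higher and 4.74% lower in number 2, and 2.79% and 4.08% in number 4. Number 3 (41 Tdp cells) had 4 higher and none lower, against 2.82% and 1.8% of genes, and a median of 0.36. In number 1 (47 Tdp cells) none of 39 was higher and 3 were lower, against 2.48% and 4.13% of genes, and the median was -0.39. Number 1 thus ran against the others. The ratio was over 1 in all 4 numbers for 7 of the 40 members, among them Arhgap19 (1.62 to 3.32), Ska2 (1.58 to 2.24), Bub1b (1.14 to 2.63), Ccna2 (1.16 to 2.07) and Prc1 (1.03 to 2.88). Without number 2, 8 of the 40 were called higher and the median was 0.25. Without number 1 the count was 29.

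**Figure D5:**
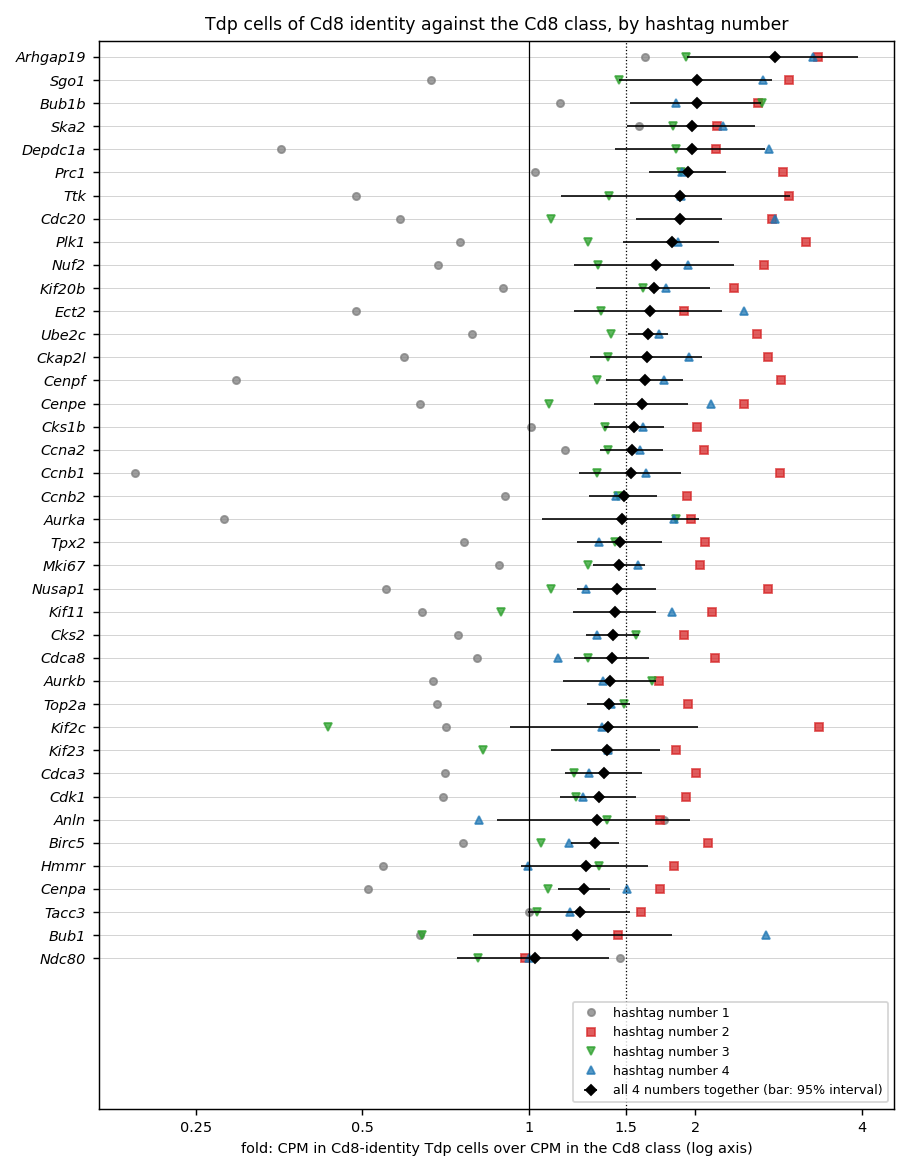
Ratio of CPM in Cd8-identity Tdp cells over the Cd8 class (log axis) for the 40 genes, over all cells (black diamonds, bars are 95% intervals) and within each hashtag number (coloured symbols, no bars); lines mark 1 and 1.5. Number 2 (red squares) lies right of 1 for 39 genes and number 1 (grey circles) for 10 of the 39 it could be read for.

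Restricted to gated cells, 5 of the 36 members were higher in Cd8-identity Tdp cells than in the Cd8 class and none was lower, against 2.88% of 9072 genes higher and 3.74% lower. They were Prc1 at 274 against 179 CPM (1.53-fold, 1.29 to 1.80), Depdc1a at 78.6 against 49.9 (1.58-fold), Ska2 at 84.5 against 52.6 (1.61-fold), Bub1b at 104 against 63.5 (1.63-fold, 1.23 to 2.14) and Arhgap19 at 65.3 against 30.2 CPM (2.16-fold, 1.49 to 3.09). The median log2 ratio over the 36 was 0.26 against 0.02 over all genes. In the same cells the S phase list had none of 46 higher, 4 lower and a median of -0.20. With a gate of 3 UMIs 2 were called higher, and without cells of 2 Trbv genes 12 were. Of the gated cells 63 of 74 Tdp cells and 372 of 472 Cd8 class cells held 4 or more gate UMIs, and the part of this in the result was not tested. In ungated cells the sum over all 40 was 254 CPM in Cd8-identity Tdp and 247 CPM in the Cd8 class, a ratio of 1.03 (0.91 to 1.16), and Ska2 alone was called (1.88-fold, on 16 Tdp UMIs) where 1.72% of 10519 genes were called higher and 4.04% lower.

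With the Cd8 class weighted to the hashtag numbers and UMI totals of the Tdp cells, 39 of 40 members kept a log2 ratio over 0 with a median of 0.35. Arhgap19 stood at 0.91, Ska2 at 0.74, Prc1 at 0.73, Bub1b at 0.66 and Cdc20 at 0.65 on that log2 scale. Ndc80 stood at -0.19 and was the 1 member below 0. Without cells that held 2 Trbv genes, 36 of 40 were called higher and the median was 0.74.

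Tdp cells of Cd4 identity had 1 member higher and 1 lower than their own single class. Ect2 was higher, 17 UMIs and 29.7 CPM against 14.9 CPM (2.00-fold, 1.14 to 3.30), and Bub1 was lower, on 1 UMI against 107 (a ratio of 0.17, upper bound 0.99), where 2.2% of 10602 genes were called higher and 2.92% lower. The median log2 ratio over the 40 was 0.06, and its direction depended on the cells taken. With the Cd4 class weighted to the hashtag numbers and UMI totals of the Tdp cells it was -0.72, and only Ect2 was over 0. Without cells of 2 Trbv genes it was 0.43 with 7 members higher, and without cells with other types' markers 0.42 with 10 higher. A second Trbv gene was also found in ungated Cd4-identity Tdp cells, in 46.4% (33.0 to 60.3) against 14.8% in the ungated Cd4 class. Cenpa (217 against 151 CPM) and Ccnb2 (119 against 79.7 CPM) had ratios of 1.43 and 1.49, under the fold. Knl1, a kinetochore scaffold outside the 40, was the 1 higher gene of 48 further mitosis genes (1.57-fold).

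In gated cells a minority of the members was lower in this class. Of the 36 members 6 were lower and none higher than in gated Cd4 class cells, against 2.31% of 8391 genes lower and 2.93% higher, with a median log2 ratio of -0.33. Prc1 stood at 110.0 against 186 CPM (a ratio of 0.59, 0.36 to 0.91), Hmmr at 52.4 against 116 (0.45), Ckap2l at 47.1 against 100.7 (0.47), Kif20b at 41.9 against 91.7 (0.46) and Ndc80 at 31.4 against 79.96 CPM (0.39). Bub1, the other, rested on 1 UMI. These values came from 21 cells, of which 10 held 2 Trbv genes, and without such cells none was lower. The S phase sum was 4049 against 4805 CPM (a ratio of 0.84). The S phase share, 45.7 against 45.1%, was 42.1 against 44.3% without cells of 2 Trbv genes, 41.9 against 46.2% without cells with other types' markers and 49.5 against 44.4% without number 2, so it had no settled direction. Over all cells, number 1 (25 Tdp cells) had 17 members lower and none higher, against 2.13% and 2.69% of genes, and number 2 (38 Tdp cells) had 16 higher and none lower, against 2.4% and 2.25% of genes. Number 4 (21 Tdp cells) had 1 of each, against 3.12% of genes higher and 1.73% lower. The Cd4-identity values thus depended on which cells were taken. In ungated cells 3 members of 22 were higher and none lower than in the Cd4 class, against 2.28% of 10077 genes higher and 2.63% lower, each on few Tdp UMIs: Aurkb on 6 (4.69-fold, 1.58 to 11.6), Ccnb2 on 6 (3.01-fold, 1.05 to 7.13) and Ube2c on 12 (2.13-fold, 1.07 to 3.86).

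Between the Tdp classes, 22 of the 40 members were higher in cells of Cd8 identity. This comparison shares its cells with those above and is no separate evidence. None was lower, against 3.95% of 8121 genes higher and 3.09% lower, with a median log2 ratio of 0.68. Kif20b stood at 47.9 CPM in Cd8-identity and 14.0 in Cd4-identity Tdp cells (3.42-fold, 1.67 to 8.17), and Sgo1 at 28.2 and 6.99 CPM (4.03-fold, 1.49 to 15.3). Bub1 at 15.4 against 1.75 CPM had the largest ratio, 8.83, but on the single UMI its interval ran from 1.46 to 360.4. Cenpa (0.94) and Ect2 (0.97) were the 2 members with a ratio under 1. The ratio was over 1 in each of the 3 numbers that held enough cells for 31 of 40. That count applied no UMI minimum and included ratios with no UMI in Cd4-identity Tdp cells. With the UMI minimum of a call, 11 members could be compared in number 1, 37 in number 2 and 32 in number 4. Of these, 10, 35 and 28 had a ratio over 1. Most members thus could not be compared in number 1. Thinned to 2000 UMIs, 3 members were called, and without cells of 2 Trbv genes 8. Markers of some other cell types moved the same way, with macrophage or monocyte markers at 391 against 68.1 CPM (5.74-fold, 4.16 to 8.13) and NK markers at 347 against 68.1 CPM (5.09-fold, 3.68 to 7.22). Dendritic markers were also higher (2.39-fold, 1.37 to 4.52). The B cell sum (178 against 201 CPM, 0.89), the stroma and endothelium sum (0.74) and the neutrophil sum (0.30) were lower, each with an interval that held 1. Without cells with marker UMIs of the macrophage, dendritic, NK, B cell or melanoma lists, 7 members were called and the median was 0.43. Cells with B cell markers made up most of those left out: of 24 such gated Cd8-identity Tdp cells, 23 held B cell markers. In gated cells 15 of the 36 were higher and none lower, against 3.11% of 5374 genes higher and 3.07% lower, with Prc1 at 274 against 110.0 CPM (2.49-fold, 1.58 to 4.13). In ungated cells Cenpa was the 1 member called, lower at a ratio of 0.54 (0.32 to 0.91), where 3.81% of 6937 genes were called higher and 3.11% lower.

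Single members differed little between the single classes, though a larger share of Cd8 class cells was gated. The gated shares were 17.6% (16.2 to 19.1) in the Cd8 class and 12.8% (11.5 to 14.2) in the Cd4 class. Thinned to 2000 UMIs they were 13.5% (12.2 to 14.9) and 9.09% (7.93 to 10.4). In neither setting did the intervals overlap. No member was called in the Cd8 class against the Cd4 class, where 8.19% of 11643 genes were called higher and 6.55% lower, with no test made. The ratio was over 1 for 35 of the 40, with a median log2 ratio of 0.17, and the summed level was 2455 against 2142 CPM, 1.15-fold (1.13 to 1.17). Birc5 (1.39), Depdc1a (1.39), Kif2c (1.38) and Cdca3, a trigger of mitotic entry (1.37), came nearest to the fold, and Ska2 (0.89) was the furthest below 1. In gated cells the median was 0.06, and none of the 36 was called against 3.92% of 9718 genes higher and 5.64% lower. Thinned to 2000 UMIs, 10 members were called higher over all cells.

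In ungated cells 3 members were higher in the Cd4 class. Prc1 had 95 UMIs in ungated Cd4 class cells and 59 in ungated Cd8 class cells, a ratio of 0.51 (0.36 to 0.71) for Cd8 over Cd4. Plk1 had 23 and 9 UMIs (0.32, 0.13 to 0.72) and Cenpe 37 and 24 (0.53, 0.31 to 0.92). These were 3 of the 28 members outside the gate with enough UMIs, and none was higher, against 7.09% of 11183 genes lower and 9.38% higher, so the share was near that of all genes.

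Genes around the members were taken from lists. Of 48 further mitosis genes 13 were higher and none lower in Cd8-identity Tdp cells than in the Cd8 class, with a median log2 ratio of 0.35. In this comparison 2.07% of 11040 genes were called higher and 4.6% lower. Cep55, of the abscission site, stood at 35.6 against 20.04 CPM (1.78-fold, 1.34 to 2.33), while Cenpm had a ratio of 0.79 (0.55 to 1.10). Of 14 regulators of mitotic transcription 1 was higher, the MuvB subunit Lin54 at 17.02 against 10.9 CPM (1.55-fold, 1.03 to 2.29). This was a single call on 32 Tdp UMIs, and Lin9, another subunit, had 0.62 (0.32 to 1.08). Of 18 G1 cyclins, kinases and inhibitors, Cdkn3, a phosphatase that acts on Cdk proteins and is itself high in mitosis, was higher at 45.7 against 25.8 CPM (1.77-fold, 1.38 to 2.25). Cdkn1a (p21, a Cdk inhibitor) was lower at 49.98 against 97.98 CPM (a ratio of 0.51, 0.41 to 0.63). The mitosis list outside the 40 thus moved the same way as the members, with a smaller median.

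Markers of other cell types differed between the compared cells. Gated Cd8-identity Tdp cells had all 7 dendritic and both neutrophil markers at 0, a summed 84.2 CPM of 10 macrophage or monocyte markers with 4 at 0, and 38.4 CPM of 6 NK markers with 3 at 0. Gated Cd8 class cells had 624 CPM of macrophage or monocyte markers and 264 CPM of NK markers, with none of either at 0. Melanoma markers summed to 4.43 and 4.52 CPM in these sets. Of the B cell markers only Cd79b and Ighm were in the table, and they reached 2 UMIs in 31.1% of the gated Tdp cells and 24.8% of the gated Cd8 class cells. The macrophage and NK sums were thus lower in the class with more mitotic transcript. Over all cells the macrophage or monocyte sum was 391 against 1093 CPM in the Cd8 class, with all 10 markers called lower. The NK sum was 347 against 717 CPM, with all 6 called lower, where 4.6% of all genes were. The B cell sum went the other way (178 against 152 CPM), and the stroma and endothelium sum was level (20.7 against 20.5 CPM). The Cd8 class thus held more macrophage and NK transcript, whose part in the member ratios was not tested. Without cells that held marker UMIs of other types, the S phase share was 37.2% in gated Cd8-identity Tdp cells.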

How the data were processed

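Gene expression came from 1 droplet 5′ library of pooled, hashtagged T cells. The values are UMI counts as deposited, whole numbers per gene and cell without normalization. The submitters' processing notes name Cell Ranger 3.1.0, Seurat 3.2.3 and mm10, with no role or order given. The identity, Tdp call and hashtag number of each cell are the authors' deposited annotation. The antibody count table and the hashtag and receptor libraries were not analysed here.

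Each class was summed to 1 count per gene, leaving out 117 receptor genes (0.32% of UMIs), and scaled to CPM. Levels have exact Poisson intervals, shares Clopper-Pearson intervals and ratios exact conditional binomial intervals, at 95%. A gene was called at 1.5-fold or more with an interval that left out 1 and at least 20 UMIs over both classes. Log2 ratios used a pseudocount of 5 CPM. With 1 library and no replicates, no test was made. Cells were not filtered further, no doublet caller was run, and cells with 2 Trbv genes were left out as an alternative. For matched depth, cells were thinned to 2000 UMIs. Independent Poisson counts were simulated, with genes of at least 100 UMIs over both classes changed 2-fold. Raised genes were called in 99% and lowered genes in 87% of cases at the depth of the Cd8-identity comparison with its single class. At the depth of the Cd4-identity comparison these were 85% and 62%. Because member UMIs cluster in few cells and calls began at 20 UMIs, these rates do not measure how surely a member is called. Members are named by role. Values in all 4 classes are given for the gate genes, the member with the most UMIs in each role and the called members with the largest ratios, and from each other list the 2 highest and 2 lowest, of which 1 is not reported here. The members and lists were chosen with earlier results of these data known. Python 3.11.15, numpy 2.4.6, scipy 1.17.1, pandas 2.3.3, matplotlib 3.10.9 and edgeR 4.0.16 (TMM factors only) were used.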

Additional observations from a re-analysis of the deposited data

Results flagged for a closer look

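Prc1, the bundler of central spindle microtubules, differed in opposite directions between Tdp cells and their single class in the 2 identities. In gated cells it stood at 274 CPM in Cd8-identity Tdp and 179 CPM in the Cd8 class, 1.53-fold higher (1.29 to 1.80). In Cd4-identity Tdp cells it stood at 110.0 CPM, on 21 UMIs, against 186 CPM in the Cd4 class, a ratio of 0.59 (0.36 to 0.91). Both were called and their intervals stood on opposite sides of 1. The second rests on 21 gated cells, 10 of them with 2 Trbv genes, and was not called without such cells. The difference between the 2 ratios was not tested, since the classes have no replicates.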

How the results depend on the processing

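Of 382 values that answer a comparison, recomputed under the alternatives, 268 moved by less than 1.5 times (counts) or by less than the counting interval (shares and medians), and 114 moved further. For calls of single members, 355 of 473 kept their side of the threshold, 118 lost it and none changed sign. The S phase share of gated Cd8-identity Tdp cells was below that of the Cd8 class under each of the 13 alternatives that gave it, by 4.99 to 12.1 percentage points. Gated Cd4-identity Tdp values rest on 21 cells. The balance weighted to gated depth and the gated counts under other gates were added after the data were seen. No paired analysis was possible because all cells came from 1 pool and 1 library. The causes were not tested. The gated share of Cd4 class, 12.8%, was 9.09% after thinning, 28.1% with a gate of 1 UMI, 9.81% with a gate of 3 UMIs, 16% with a gate of 3 UMIs over the other 36 members, 27% with the single class weighted to its Tdp cells and 11 to 14.5% leaving out each hashtag number. The S phase share of Cd4 class, 45.1%, was 41.3% after thinning, 48.3% with a gate of 1 UMI, 43.7% with a gate of 3 UMIs, 46.2% without cells with other types' markers, 44.3% without cells of 2 Trbv genes, 44.3% with gated cells weighted to gated Tdp depth, 55.5% as a mean over cells, 53.6% as the percent of S-leaning cells, 38% with all 40 members, 39.2% with the further mitosis genes and 44.2 to 47.2% leaving out each hashtag number. The gated share of Cd4-identity Tdp, 22.6%, was 40.9% with a gate of 1 UMI. The S phase share of Cd4-identity Tdp, 45.7%, was 39.7% after thinning, 41.9% without cells with other types' markers, 42.1% without cells of 2 Trbv genes, 53.6% as a mean over cells, 52.4% as the percent of S-leaning cells, 39.1% with all 40 members, 39% with the further mitosis genes and 41.5 to 49.5% leaving out each hashtag number. The gated share of Cd8 class, 17.6%, was 13.5% after thinning, 29.4% with a gate of 1 UMI, 14.8% with a gate of 3 UMIs, 23.1% with a gate of 3 UMIs over the other 36 members and 22.8% with the single class weighted to its Tdp cells. The S phase share of Cd8 class, 46.6%, was 43.6% after thinning, 49.2% with a gate of 1 UMI, 45.5% with a gate of 3 UMIs, 45.4% without cells of 2 Trbv genes, 51.4% as a mean over cells, 49.8% as the percent of S-leaning cells, 39.1% with all 40 members, 38.9% with the further mitosis genes and 45.1 to 47.7% leaving out each hashtag number. The gated share of Cd8-identity Tdp, 23.6%, was 18.4% after thinning, 37.4% with a gate of 1 UMI and 31% with a gate of 3 UMIs over the other 36 members. The S phase share of Cd8-identity Tdp, 38.6%, was 31.5% after thinning, 40.7% with a gate of 1 UMI, 37.4% with a gate of 3 UMIs, 37.2% without cells with other types' markers, 37.1% without cells of 2 Trbv genes, 46.4% as a mean over cells, 32.3% with all 40 members and 33.9% with the further mitosis genes. Members higher in Cd8-identity Tdp against Cd8 class, 19, numbered 36 without cells of 2 Trbv genes and 8 to 29 leaving out each hashtag number. The median log2 ratio of Cd8-identity Tdp against Cd8 class, 0.54, was 0.74 without cells of 2 Trbv genes, 0.35 with the single class weighted to its Tdp cells and 0.25 to 0.65 leaving out each hashtag number. Members higher in Cd8-identity Tdp against Cd8 class, gated cells, 5, numbered 2 with a gate of 3 UMIs and 12 without cells of 2 Trbv genes. The median log2 ratio of Cd8-identity Tdp against Cd8 class, gated cells, 0.26, was 0.48 without cells of 2 Trbv genes. Members higher in Cd4-identity Tdp against Cd4 class, 1, numbered 2 after thinning, 10 without cells with other types' markers, 7 without cells of 2 Trbv genes, 11 from means of per-cell CPM by fold alone and 0 to 12 leaving out each hashtag number. Members lower in Cd4-identity Tdp against Cd4 class, 1, numbered 0 after thinning, 0 without cells with other types' markers, 0 without cells of 2 Trbv genes, 2 with TMM scaling, 3 from means of per-cell CPM by fold alone and 0 to 7 leaving out each hashtag number. The median log2 ratio of Cd4-identity Tdp against Cd4 class, 0.06, was 0.42 without cells with other types' markers, 0.43 without cells of 2 Trbv genes, -0.72 with the single class weighted to its Tdp cells and -0.30 to 0.40 leaving out each hashtag number. Members higher in Cd4-identity Tdp against Cd4 class, gated cells, 0, numbered 1 without cells of 2 Trbv genes and 0 to 1 leaving out each hashtag number. Members lower in Cd4-identity Tdp against Cd4 class, gated cells, 6, numbered 1 after thinning, 3 without cells with other types' markers, 0 without cells of 2 Trbv genes and 2 to 13 leaving out each hashtag number. Members higher in Cd8-identity Tdp against Cd4-identity Tdp, 22, numbered 3 after thinning, 7 without cells with other types' markers and 8 without cells of 2 Trbv genes. Members lower in Cd8-identity Tdp against Cd4-identity Tdp, 0, numbered 1 from means of per-cell CPM by fold alone. Members higher in Cd8-identity Tdp against Cd4-identity Tdp, gated cells, 15, numbered 1 after thinning, 9 with a gate of 3 UMIs, 8 without cells with other types' markers, 9 without cells of 2 Trbv genes and 9 with a 100-UMI minimum. Members higher in Cd8 class against Cd4 class, 0, numbered 10 after thinning, 14 from means of per-cell CPM by fold alone and 1 to 3 leaving out each hashtag number. Members higher in Cd8 class against Cd4 class, gated cells, 0, numbered 1 after thinning and 0 to 2 leaving out each hashtag number.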

Other observations

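The share of gated cells differed between T cell states within a class. The state genes were chosen with results of these data in view, cells were thinned to 2000 UMIs, and a cell without a UMI may still express the gene. In the Cd8 class, 20.5% (17.4 to 23.9) of cells with a UMI of Gzmb, a cytotoxic protease, were gated against 11.2% (9.80 to 12.7) of cells without. For Gzmk, another granzyme, the shares were 21.8% (18.8 to 25.1) and 10.3% (8.94 to 11.8). Tcf7, a factor of stem-like and memory T cells, ran the other way, with 5.80% (4.23 to 7.73) and 16.8% (15.1 to 18.6). Ccr7, a lymph node homing receptor, had 2.37% (0.65 to 5.95) and 14.3% (12.9 to 15.8). None of these pairs of intervals overlapped.

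In the Cd4 class, cells with a UMI of Foxp3, the regulatory T cell factor, were gated in 4.39% (2.58 to 6.94) against 10.1% (8.73 to 11.5) without. For Pdcd1, the PD-1 receptor, the direction in the Cd8 class depended on thinning. In the Cd4 class 13.7% (9.86 to 18.3) of cells with it and 8.44% (7.25 to 9.76) of cells without were gated, and in the Cd8 class 11.3% (9.10 to 13.8) and 14.5% (12.8 to 16.2). The first pair of intervals stood apart and the second overlapped. Before thinning the shares were 22.1% and 10.3% in the Cd4 class and 21.2% and 14.8% in the Cd8 class, so both were then higher with Pdcd1. Gated Cd8 class cells with Pdcd1 held a larger S phase share of UMIs, 51.7% (49.6 to 53.8), than those without, 40.9% (39.8 to 42.1). For Gzmk the shares were 40.2% (38.7 to 41.7) with and 46.5% (45.0 to 47.9) without. Gzmb went with Pdcd1, at 46.5% with and 41.8% without, as did Tcf7, at 49.6% and 42.9%, and Ccr7, at 72.4% and 43.4% on 4 gated cells with it. Of these 5 genes Gzmk was the 1 with a lower S phase share in Cd8 class cells that held it. In the Cd4 class Tcf7 ran the other way, at 37.6% with and 41.8% without. Pdcd1 there stood at 42.9% and 41.0%, Foxp3 at 42.1% and 41.3%, and Ccr7 had 1 gated cell with it. These S phase intervals treat molecules of 1 cell as independent and are too narrow for a statement about cells.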
